A study of Mus musculus with 10 samples.

Results

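The 8 genes described here encode helix-loop-helix proteins: the inhibitor of DNA binding genes Id1, Id2, Id3 and Id4, the E-protein genes Tcf3 (E2A), Tcf4 (E2-2) and Tcf12 (HEB), and Atoh8, whose product is a DNA-binding member of the atonal-related group. They are 8 of 21887 protein-coding genes, and for each one every HEB site inside the gene or within 500 kb of it was taken. HEB was immunoprecipitated from Comma-Dβ cells, an immortalised line of mouse mammary epithelium, at passage 28. The cells had been transfected with a 20 nM siRNA pool, either the Id4 pool (siID4, 3 libraries) or a non-targeting control pool (siNT, 3 libraries), and were collected after 48 h. The 4 input libraries, without antibody or siRNA according to their labels, served both arms. All libraries come from 1 cell line at 1 passage, and the labels do not say whether replicates were separate cultures.

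E-proteins bind the E-box, a short DNA word of the form CANNTG, as dimers joined through their helix-loop-helix regions. ID proteins have the dimerisation region but lack the basic region that contacts DNA, so an E-protein paired with an ID protein does not bind the E-box. HEB and the other E-proteins form dimers with one another and with tissue-restricted factors of the same superfamily. In the mammary gland ID4 is known as a protein of basal epithelial cells.

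The data are 2 lists of peak summits, 1 for each siRNA, with 560 summits for siNT and 1489 for siID4. A summit is the 1-bp position of a peak's maximum, and each carries a score given by the authors' peak caller, read here as −log10 of the q value. Ranks below count from the highest score within a list. Summits outside the assembled chromosomes, which can lie near none of the genes counted, were kept in ranks and in all values over a list. On assembled chromosomes lay 483 of the siNT and 1394 of the siID4 summits. Read depths are unknown, no value per library was used, and no value below has an error between replicates. A site is called shared when the other list has a summit within 200 bp. Positions are mm10, counted from 1.

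Within 500 kb, 5 of the 8 genes had an siID4 summit (Id1, Id3, Tcf3, Tcf12 and Atoh8) and 4 had an siNT summit (the same without Tcf12). Over all protein-coding genes the shares were 31.1% for siID4 and 18.7% for siNT. A summit of both lists was found for 4 of the 8 genes and for 15.3% of protein-coding genes. Tcf12 had an siID4 summit only, as did 15.7% of protein-coding genes, and none of the 8 had an siNT summit only (3.43% of protein-coding genes). Id2, Id4 and Tcf4 had none in either list; this was so for 65.5% of protein-coding genes. The 8 genes were chosen by gene family with the distances, ranks and sharing of their summits in these lists already known, so these counts are a description. The window held 12 siID4 and 8 siNT summits. For 4 siID4 summits and 2 siNT summits the listed gene was also the nearest protein-coding gene, and these lay at Id3, Atoh8 and Tcf12. The other 8 siID4 and 6 siNT summits lay nearer to, or inside, another gene.

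**Figure D1:**
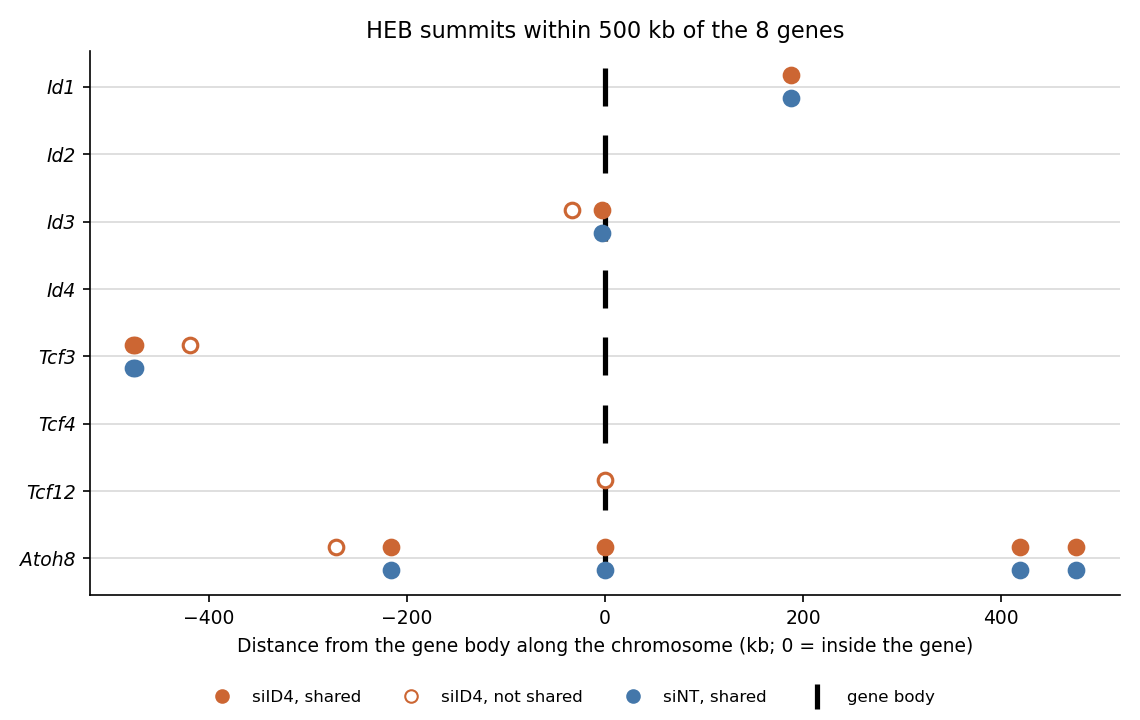
Position of each HEB summit relative to the gene body, in kb along the chromosome, for the 8 genes. Orange circles are siID4 summits, blue circles siNT summits; filled circles have a summit of the other list within 200 bp, open circles do not, and the bar marks the gene body. Atoh8 has 5 siID4 and 4 siNT summits, while Id2, Id4 and Tcf4 have none.

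Proximal promoters are shown for the 3 genes that were the nearest gene to a summit, to show what the annotated start sites hold beside the HEB summits measured from them. Each window runs from 250 bp before to 50 bp after a start site, 5′ to 3′ on the gene's strand, from RefSeq (GRCm38.p6, the assembly of mm10), and capitals mark every CANNTG word. For Tcf12 the start nearest to its summit is shown, an internal one of the 3 listed.
Id3, chr4:136143572-136143871, plus strand: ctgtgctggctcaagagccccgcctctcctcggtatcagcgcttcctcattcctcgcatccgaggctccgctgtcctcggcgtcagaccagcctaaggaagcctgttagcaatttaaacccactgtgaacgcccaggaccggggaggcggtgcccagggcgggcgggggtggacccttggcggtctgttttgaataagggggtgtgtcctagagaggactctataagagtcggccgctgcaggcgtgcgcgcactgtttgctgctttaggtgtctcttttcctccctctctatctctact
Atoh8, chr6:72235528-72235827, minus strand: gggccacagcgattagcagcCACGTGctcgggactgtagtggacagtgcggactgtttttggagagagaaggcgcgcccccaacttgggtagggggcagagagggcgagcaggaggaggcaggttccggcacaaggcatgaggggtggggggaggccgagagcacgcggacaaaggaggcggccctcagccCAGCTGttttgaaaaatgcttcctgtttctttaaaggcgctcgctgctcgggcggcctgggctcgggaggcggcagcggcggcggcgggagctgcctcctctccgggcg
Tcf12, chr9:71896047-71896346, minus strand: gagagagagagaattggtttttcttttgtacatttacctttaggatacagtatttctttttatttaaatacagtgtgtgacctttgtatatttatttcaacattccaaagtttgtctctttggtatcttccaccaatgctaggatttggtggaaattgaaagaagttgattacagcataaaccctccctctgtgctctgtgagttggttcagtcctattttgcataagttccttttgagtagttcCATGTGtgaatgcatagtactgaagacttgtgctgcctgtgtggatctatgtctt

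The E-box form is its own reverse complement, so 1 search covers both strands, and the words named next are all cases of it. The Id3 window held none. The Atoh8 window held CACGTG, starting 230 bp before the start site, and CAGCTG, 59 bp before it. The Tcf12 window held CATGTG, 5 bp before the start. The table had 8 windows for 6 of the genes (Id2, Id3, Id4, Tcf3, Atoh8 and 3 for Tcf12), and 6 of the 8 held at least 1 word. Among all 32851 promoter windows the share with CANNTG was 72.3%. It was 16.3% for CAGCTG and 7.15% for CACGTG, and 14.2% for CATGTG or its reverse complement. The word CAGCTG also occurred in the Id2 window and in the outermost Tcf12 window, and the Id4 window had no CANNTG word. No summit of either list fell in any of the 8 windows. The share of all 32851 windows with a summit was not computed, so nothing is read from this. A word in a window is a match of letters and is not evidence of a site, and the sequence under the summits was not analysed here.

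Id3 was the ID gene with a HEB site at close range. It lies on chromosome 4 from 136143822 to 136145392. The siNT summit at 136140563 scored 16.5 and ranked 114 of 560, and the siID4 summit at 136140580 scored 35.4 and ranked 47 of 1489. The 2 summits were 17 bp apart, 3259 bp and 3242 bp upstream of the annotated Id3 start. Both fell inside Gm42329, a long non-coding RNA gene from 136138595 to 136142218. A further siID4 summit lay 33075 bp upstream of Id3, at 136110747, with a score of 5.81 and rank 525. It had no siNT summit within 200 bp, and the nearest was the site at Id3 itself, 29816 bp away. No other protein-coding gene lay between either site and Id3. A summit inside the gene or within 5000 bp was held by 2.51% of protein-coding genes in the siID4 list and by 0.991% in the siNT list. For 0.516% that summit was a shared one, as at Id3 and Atoh8.

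Id1, on chromosome 2 from 152736251 to 152737410, had 1 site in the window. The siNT summit at 152925722 scored 29.8 and ranked 49, and the siID4 summit at 152925764 scored 15.5 and ranked 152. These lay 42 bp apart and about 188 kb from Id1, with 4 protein-coding genes in between. The nearest was Mylk2, a myosin light chain kinase gene of skeletal muscle, 2657 bp from the siNT and 2699 bp from the siID4 summit. The annotation therefore places this shared site next to Mylk2 and not next to Id1.

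Id2 and Id4 were far from any summit. Id4, the target of the siRNA, lies on chromosome 13 from 48261116 to 48266028. Both lists had their nearest summit at the identical position 51314704, at 3.05 Mb, scoring 44.4 (rank 31) in siNT and 33.8 (rank 54) in siID4. S1pr3, a sphingosine-1-phosphate receptor gene, was the nearest gene to that summit, at 93914 bp. For Id2, on chromosome 12 from 25093799 to 25096092, the nearest siNT summit was 4.83 Mb and the nearest siID4 summit 4.90 Mb away. In the siID4 list 73.7% of protein-coding genes had a summit as near as that of Id4 or nearer, and 83.8% one as near as that of Id2 or nearer. In the siNT list the shares were 56.0% and 67.6%. The lists contain no expression values, so the level of Id4 after its siRNA was not measured here.

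**Figure D2:**
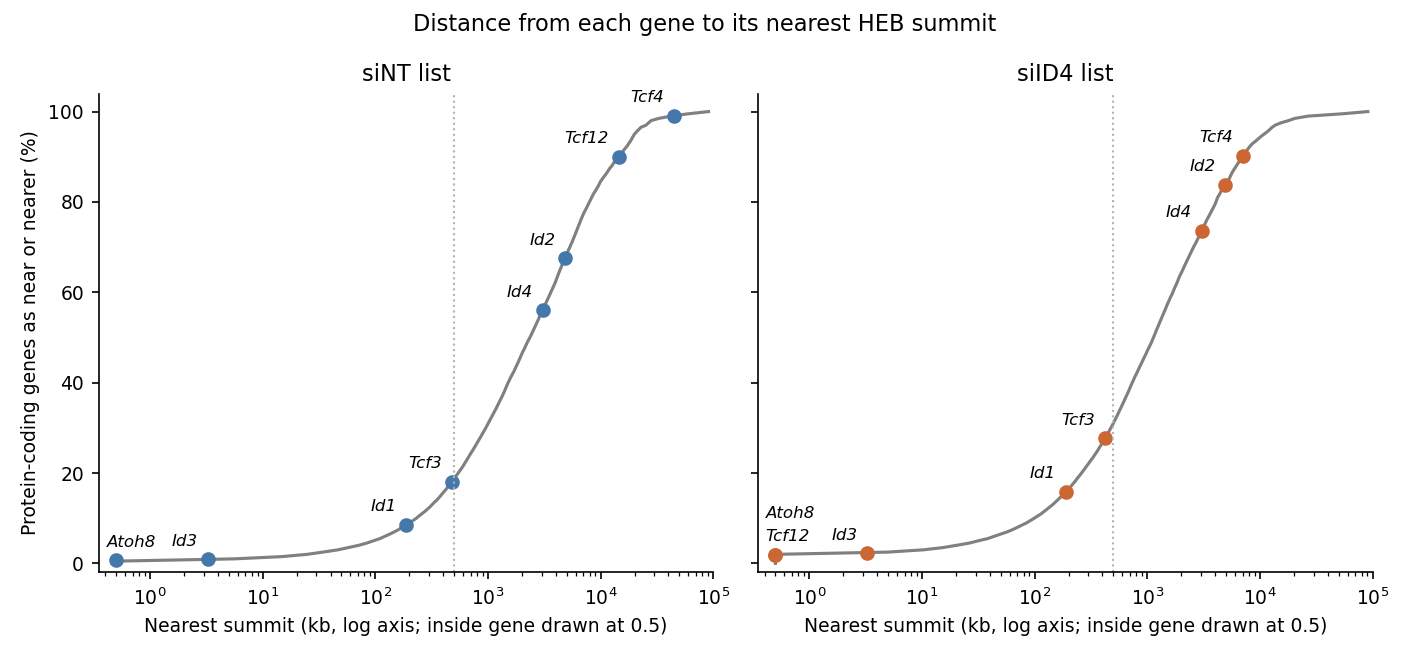
Distance from a gene to its nearest summit (kb, log axis) against the percentage of protein-coding genes with a summit at least as near, in the siNT list (left) and the siID4 list (right). The grey curve is all 21887 protein-coding genes, points are the 8 genes, summits inside a gene are drawn at 0.5 kb, and the dotted line marks 500 kb. Atoh8 and Id3 sit at the near end in both lists, and Tcf12 sits there in the siID4 list and at 90.05% in the siNT list.

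Among the E-protein genes, Tcf12 itself held a summit. The gene spans 268 kb of chromosome 9, from 71844252 to 72111893 on the minus strand. The siID4 summit at 71888592 scored 6.60, with rank 452, a score that 14 siID4 summits had in common. It lay 7504 bp downstream of the internal start at 71896096 and 44340 bp from the gene's 3′ end. The siNT list had no summit within 500 kb of Tcf12; the nearest was 14.4 Mb from the gene, at 57421344, with a score of 3.66. Of all protein-coding genes, 0.804% had an siID4 summit inside and no siNT summit within 500 kb, and 1.96% had an siID4 summit inside. This summit was in the siID4 list alone, and it scored below the shared site near Id3 and the site inside Atoh8.

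Tcf3 lies in a gene-dense part of chromosome 10, from 80409541 to 80433976, and its summits were all about 420 kb or more away. A pair of summits inside Arid3a, which encodes an ARID-domain DNA-binding protein, was present in both lists. The siNT summits at 79932931 and 79934404 scored 49.3 (rank 28) and 31.3 (rank 41). The siID4 summits at 79932925 and 79934409 scored 42.7 (rank 37) and 38.6 (rank 40). Matching summits were 6 bp and 5 bp apart, and those within a list 1473 bp (siNT) and 1484 bp (siID4). The lower-coordinate one of the pair had the highest score, in each list, among the summits around the 8 genes. An siID4 summit without an siNT partner lay inside Cnn2, the gene of an actin-binding calponin, at 79990013 (score 12.5, rank 213), 1413 bp downstream of its start. Between Tcf3 and these sites, 31 protein-coding genes overlapped the interval to Arid3a and 27 that to Cnn2, both counts including the gene that holds the summit. At least 2 siNT summits within 500 kb were found for 5.02% and at least 3 siID4 summits for 6.24% of protein-coding genes.

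Tcf4, the third E-protein gene, lies on chromosome 18 from 69343429 to 69687967. Chromosome 18 carried 3 siID4 and 2 siNT summits in all. The nearest to Tcf4 were 7.06 Mb away in the siID4 list (score 1.78, rank 1380) and 44.6 Mb away in the siNT list (score 12.4, rank 162). For Tcf4, 90.2% of protein-coding genes had an siID4 summit as near or nearer, and 99.1% an siNT summit.

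Atoh8, on chromosome 6 from 72206174 to 72235780 (minus strand), held a summit inside the gene in both lists. The siNT summit at 72216806 scored 35.02 and ranked 37, and the siID4 summit at 72216796 scored 35.4 and ranked 47. They were 10 bp apart and lay 18771 bp and 18781 bp downstream of the annotated Atoh8 start. A summit inside the gene body was found for 1.96% of protein-coding genes in the siID4 list and 0.713% in the siNT list.

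The region around Atoh8 held more summits than that of any other of the 8 genes, with 5 siID4 summits spread over 778 kb and 4 siNT summits. Of all protein-coding genes 2.89% had at least 5 siID4 summits and 1.45% at least 4 siNT summits within 500 kb. On the higher-coordinate side, 2 shared sites lay inside Tcf7l1, which encodes an HMG-box factor of Wnt signalling and is not an E-protein gene despite its symbol. The site 476 kb from Atoh8 scored 26.3 (rank 61) at 72711920 in siNT and 32.3 (rank 57) at 72711926 in siID4. The site 420 kb away scored 7.74 (rank 254) at 72655469 in siNT and 8.02 (rank 360) at 72655501 in siID4. It lay 211 bp (siNT) and 243 bp (siID4) downstream of the start of Gm31391, a long non-coding RNA gene inside Tcf7l1. On the other side, a shared site 216 kb from Atoh8 scored 8.08 (rank 248) in siNT and 4.62 (rank 686) in siID4. It lay 10747 bp and 10718 bp from Polr1a, which encodes the largest subunit of RNA polymerase I. An siID4 summit inside Polr1a, 272 kb from Atoh8, had the score 6.60 and rank 452, the same as the Tcf12 summit, and no siNT summit within 200 bp.

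**Figure D3:**
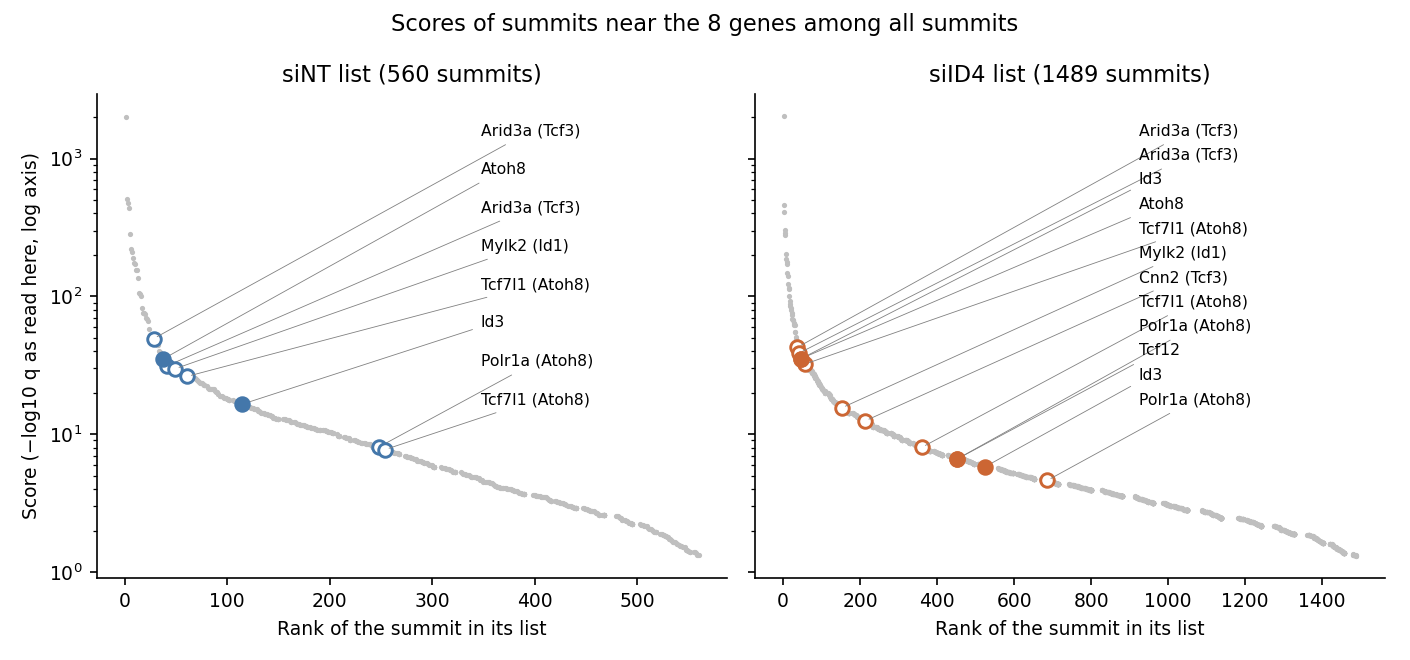
Score of every summit (log axis) against its rank, in the siNT list (left) and the siID4 list (right), in grey. Circles are the summits within 500 kb of the 8 genes, labelled with the nearest protein-coding gene; filled circles are those whose nearest gene is one of the 8, and open circles name the listed gene in brackets. In the siID4 list Id3 and Atoh8 share rank 47, and Tcf12 and a Polr1a summit share rank 452.

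The siID4 summits near Id3 and inside Atoh8 had the same score and shared rank 47 with 2 others, so their order in that list cannot be told apart. Equal scores were common, with 52.6% of siID4 and 28.9% of siNT summits sharing their exact score with another summit of the same list. The summits near the 8 genes ranged from rank 28 to rank 254 in siNT, with scores of 7.74 to 49.3. In siID4 they ranged from rank 37 to rank 686, with scores of 4.62 to 42.7. Their median score was 28.1 in siNT, against 6.68 over that list, and 14.003 in siID4, against 4.31. These medians include summits nearer to another gene, 6 of 8 in siNT and 8 of 12 in siID4. Summits nearest to a listed gene scored 16.5 (Id3) and 35.02 (Atoh8) in siNT. In siID4 they scored 35.4 and 5.81 (Id3), 35.4 (Atoh8) and 6.60 (Tcf12). These scores were part of how the genes were chosen and are given as a description.

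All 8 siNT summits near the genes and 8 of the 12 siID4 summits were shared, as were 51.8% of the siNT list and 19.5% of the siID4 list. The sharing was among the values that chose the genes, so nothing is read from these counts. The 4 siID4 summits without a partner were those 33075 bp upstream of Id3, inside Cnn2, inside Tcf12 and inside Polr1a. The siNT and siID4 positions of the 8 shared sites differed by 5 to 42 bp with a median of 13.5 bp, and those of all 290 shared sites had a median of 13 bp.

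Because the lists differ in length, the 8 shared sites were also placed in the order of the 290 shared sites, where both orders have the same length. The Id3 site stood at place 105 by its siNT score and at place 43 by its siID4 score. The site by Mylk2 in the Id1 window stood at 47 and 129, and the Polr1a site in the Atoh8 window at 200 and 258. These differences of 62, 82 and 58 places were above the 75th percentile over all shared sites, which was 50.75 places, and below the largest, 145. The site inside Atoh8 was at place 36 in siNT and 43 in siID4. It and both Arid3a and both Tcf7l1 sites differed by 3 to 7 places, against a median of 25 over all shared sites. The median and the percentile were taken over all places and not by place. Small differences at Atoh8 and Arid3a are therefore not read as setting them apart. With 1 list per siRNA, whether any of these shifts exceeds the variation between replicates was not tested.

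**Figure D4:**
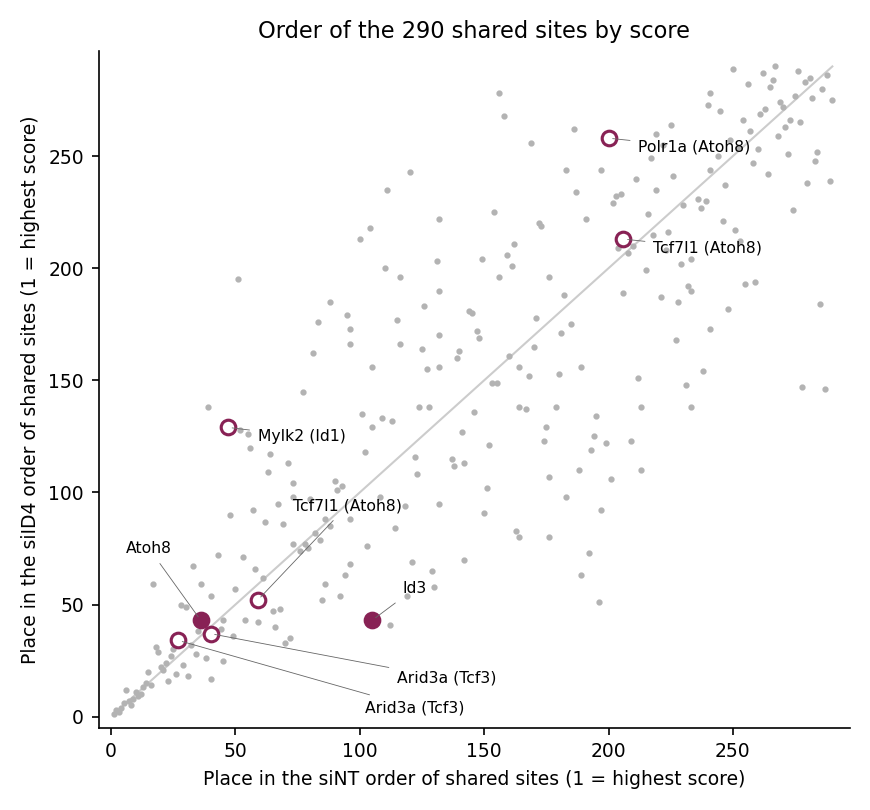
Place of each of the 290 shared sites in the order of siNT scores (horizontal) and of siID4 scores (vertical), where 1 is the highest score and the line marks equal places. Purple circles are the 8 sites within 500 kb of the listed genes, filled where the listed gene is the nearest one. Id3 lies at places 105 and 43 and Atoh8 at 36 and 43.

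No summit lay just beyond the window limit of 500 kb, but some counts rest on summits not far inside it. The outermost summits inside it were those in Arid3a, about 477 kb from Tcf3, and in Tcf7l1, 476 kb from Atoh8. The Arid3a summits, at 475 and 477 kb, were the only siNT summits of Tcf3. A window slightly narrower than 475 kb would therefore leave Tcf3 without an siNT summit. The next beyond the limit was an siID4 summit inside Nol4l, 721 kb from Id1, with a score of 3.54 and rank 881. For siNT the next was inside Nfic, 978 kb from Tcf3, with a score of 6.68 and rank 280.

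The genes whose closest HEB site was most like those of Id3 and Atoh8 were taken from the 113 protein-coding genes with a shared siID4 summit inside or within 5000 bp, by nearness to rank 47 of the siID4 list. They were Jarid2, which encodes a partner of the Polycomb repressive complex, Abca17, a transporter gene, and Fhl3, which encodes a LIM-domain protein. The summit inside Jarid2 ranked 45 in siID4 and 123 in siNT, and the one inside Abca17 ranked 51 and 67. The summit 471 bp from Fhl3 ranked 42 in siID4 and 36 in siNT. Likeness here is 1 rank in 1 list and carries no further meaning.

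Of 100 other helix-loop-helix genes, 12 had an siID4 summit within 100 kb and 4 an siNT summit, against 10.1% and 5.16% of all protein-coding genes. Both shares lay near those over all genes. Within the same distance, 3 of the 8 genes above (Id3, Tcf12 and Atoh8) had an siID4 summit and 2 (Id3 and Atoh8) an siNT summit. Ascl3, Arntl and Mxd4 were linked in both lists. The sites near Ascl3, an achaete-scute family gene, and Arntl, which encodes the circadian factor BMAL1, were shared. The Arntl site, 30.3 kb away, ranked 270 in siID4 and 292 in siNT, and Arntl was its nearest gene. The Ascl3 site was 18.2 kb away, ranked 170 and 137, and lay inside Akip1. The siNT and siID4 summits near Mxd4, a MAX-binding repressor gene, were 59499 bp apart and both lay inside Zfyve28.

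The siID4 summits near Tal2, Tfec, Mitf and Myc had that gene as their nearest. Those of Tal2 (rank 298) and Tfec (rank 403) were 15.8 kb and 45.6 kb away. Mitf, which encodes a melanocyte and osteoclast regulator, held the only summit inside a gene of this list, at rank 1376, and had another 73.8 kb away. The summit 89.3 kb from Myc, a growth regulator gene, ranked 151. The siID4 summits within 100 kb of Usf1, Figla, Bhlhe41, Tfap4 and Epas1 lay nearer to, or inside, other genes, as did the siNT summit 78.2 kb from Neurod4.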

How the data were processed

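HEB chromatin immunoprecipitation libraries were processed by the authors on mm10 with SAMtools among the tools, per the submitters' processing notes. Which aligner and caller were used, and whether replicates were pooled, is not given in the sources used here. The authors deposited 1 headerless list of summits per siRNA with a score, read as −log10 q from the layout and because the lowest values (1.32 in siNT, 1.31 in siID4) lie just above 1.30, −log10 of 0.05. No counts or depths were used, so the precision behind a score is unknown.

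Column 3 of each list was the position. Distances to gene bodies of RefSeq GRCm38.p6 (all 8 genes and all 100 other helix-loop-helix genes matched), ranks, sharing and word matches were computed in Python 3.11.15 with pandas 2.3.3 and numpy 2.4.6, and the distance and sharing code was tested on simulated data. No test was made. The genes named beside the 8 were the nearest protein-coding gene to each summit, other helix-loop-helix genes within 100 kb, and the 3 genes nearest in siID4 rank to a listed gene with a shared site within 5000 bp; Gm42329, Gm31391, Nol4l, Nfic, S1pr3, Akip1 and Zfyve28 were added after values were seen. The genes and lists were chosen with earlier results of these data known.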

Additional observations from a re-analysis of the deposited data

How the results depend on the processing

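With 1 list per siRNA and no values per library, single replicates could not be left out. No paired analysis was possible because each list is 1 set of positions per siRNA and its columns carry no replicate number. The planned count of E-boxes at summits was not run, since no genome sequence was used.

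Within 100 kb, 2 of the 8 genes had an siNT and 3 an siID4 summit, with 2 and 4 summits, of which 2 in each list were shared. Keeping only summits nearest to a listed gene, a setting chosen after seeing the data, left 2 siNT and 4 siID4 summits. Counts for the 8 genes stayed within 1.5 times at 1000 kb, with scores of at least 5 or above the median, with merging within 500 bp and with sharing within 50 bp or 1000 bp. For the 100 other helix-loop-helix genes, a window of 10 kb gave 0 in siNT and 1 in siID4. Scores of at least 5 gave 3 in siNT and 8 in siID4, against 4 and 12 without that limit. Scores above the median gave 2 in siNT and 10 in siID4. A window of 500 kb gave 16 and 33, near the 18.7% and 31.1% of all protein-coding genes. The share over all genes was not computed for 10 kb or for the score limits. Unknown depth limits every comparison of scores between the lists.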
